A study of Rattus norvegicus with 12 samples.

Results

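The motile cilium genes of bronchoalveolar lavage fluid (BALF) cells were examined in rats that received lipopolysaccharide (LPS), hypobaric hypoxia, both or neither. A gene was a member when a probe set of the array named it alone and its symbol began with Cfap, Dnah, Dnai, Dnal, Ift and a digit, Rsph, Tekt, Drc or Bbs, or was Foxj1, Ccdc113, Ccdc40, Lrrc23, Ropn1l or Mlf1. This gave 72 genes of the 14217 that the array names in this way, with 90 probe sets between them, and the probe set with the highest mean stood for each gene. Probe sets entered the tests if 3 or more of the 12 arrays gave them an intensity over the 20th percentile of the array, and 70 members passed among 12853 genes. Both members that failed were tektins, Tekt5 with a mean intensity of 5.56 and Tekt5l1 with 9.44, and neither was above the percentile, which lay between 10.13 and 11.25, in any array. Just inside the filter were Tekt3, with a mean of 10.4 and above the percentile in 5 arrays, and Dnah7, with a mean of 21.7 and above it in 6. No member passed through COMB alone, since all 70 were above the percentile in at least 3 arrays of the other groups and 62 were above it in all 12.

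All animals were 8-week-old Sprague-Dawley rats, male by the methods of the study, and all groups went without food and water during the experiment. CTL rats received saline through the tail vein under normoxia. LPS rats received 0.5 mg/kg of LPS by the same route under normoxia. HPO rats spent 6 h in a chamber at 405.35 mmHg, which corresponds to an altitude of 5000 m and 11.2% oxygen, and the sources used here do not say whether they received saline. COMB rats received LPS and then entered the chamber. Each group had 3 arrays, each of pooled RNA, which averages over its animals. The methods describe 3 rats per pool, whereas the labels list rats 2 and 3 and rats 10 and 11 for a pair of the COMB pools and rats 12, 13 and 14 for the last. Rat numbers, which were given within a group, serve as the names of the pools. Nothing in the design repeats a pool, so the spread between arrays holds both animal and technical variation. The lavage was labelled as BALF cells with no sorted cell type. The macrophage markers Mrc1 and Cd68 had mean intensities of 6156 to 7591 and of 3882 to 4110 in the 4 groups. The summed intensity of 15 alveolar macrophage markers lay between 34490 and 44410 in every pool. Of these 15 markers, 1 rose and 6 fell in COMB against CTL by limma at an adjusted p under 0.05.

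Motile cilia are hair-like extensions that beat and move mucus over the airway surface, and they are carried by multiciliated epithelial cells and not by macrophages. Their core, the axoneme, is a ring of doublet microtubules around a central pair. Dynein arms drive the beat, radial spokes and the nexin-dynein regulatory complex set its form, and tektins and other inner proteins line the doublets. Intraflagellar transport and the BBSome carry cargo within motile and primary cilia alike, and Foxj1 is the forkhead factor that switches on the genes of motile cilia.

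Cilium genes were higher in COMB than in CTL across most of their roles. Of the 70 members tested, 39 rose and 2 fell by limma at an adjusted p under 0.05, beside 11.1% of all 12853 genes that rose and 11% that fell. The median log2 difference over the members was 0.68, against -0.03 over all genes, and 61 members lay above 0. At least 2-fold differences were seen in 29 members, all of them higher in COMB, and the share of all genes was not counted for this criterion. In 44 members every COMB pool was above every CTL pool, where 17.6% of all genes showed this. In 4 members every COMB pool was below every CTL pool, a direction not counted over all genes. In pooled lavage cells, more cells of a type and more RNA per cell cannot be told apart. Members outside intraflagellar transport and the BBSome differed most. Of these 46 members, 31 rose, none fell and the median was 1.47. They are called structural below, although they include the regulator Foxj1 and Cfap298, a factor of dynein arm assembly. Of the 24 members of intraflagellar transport and the BBSome, 8 rose, 2 fell and the median was 0.42.

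**Figure D1:**
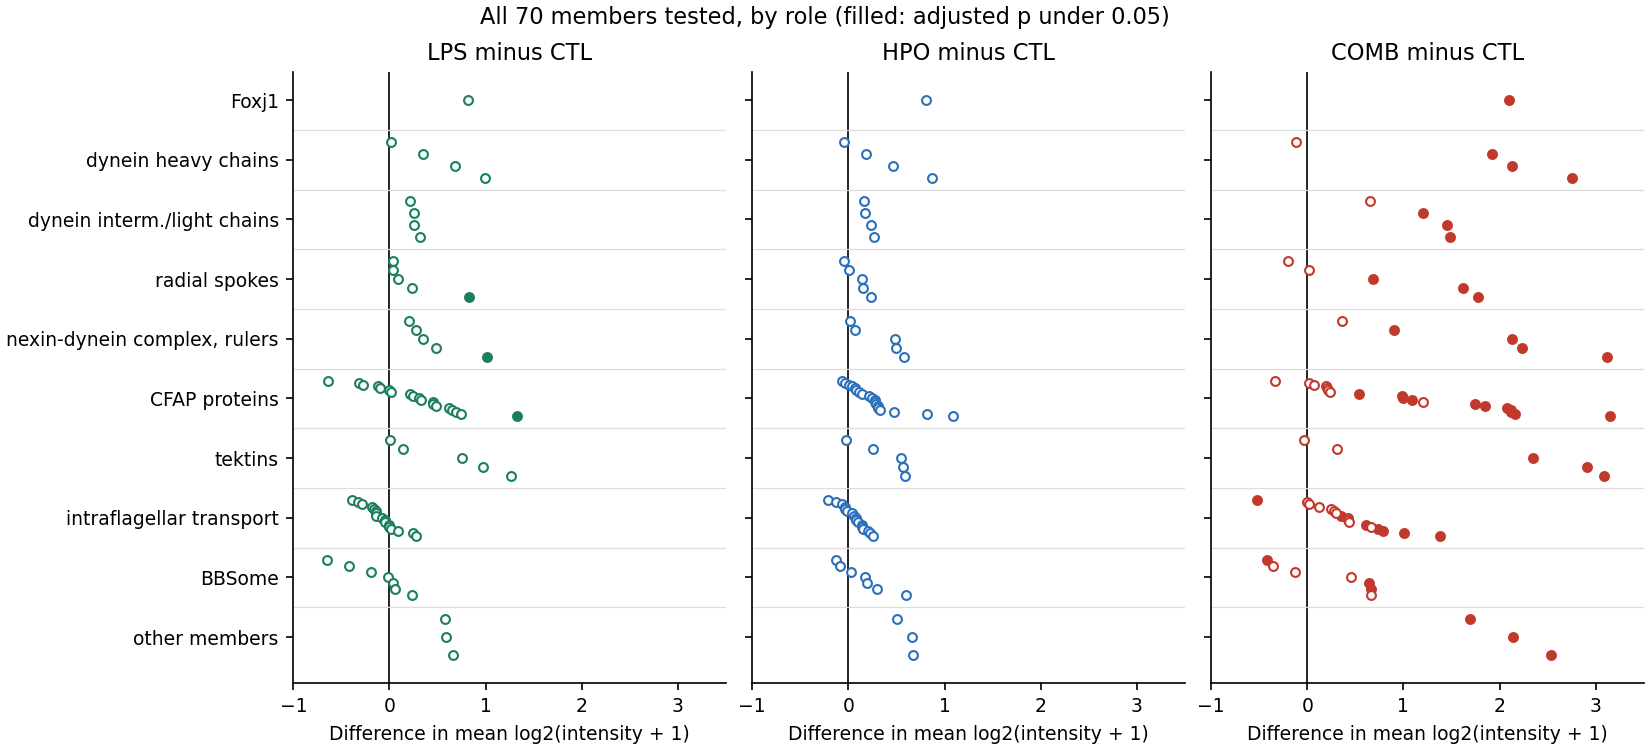
Log2 difference of each of the 70 members tested from CTL, on the log2(intensity + 1) scale, for LPS, HPO and COMB, with members set in rows of their roles. Each point is 1 member, filled points are members called by limma at an adjusted p under 0.05, and the COMB points of the axonemal roles lie farther to the right than those of LPS and HPO.

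Foxj1, the regulator of the motile cilium program, had intensities of 67.0, 77.7 and 89.9 in the CTL pools. The LPS pools had 166, 112 and 139, and the HPO pools had 135, 119 and 157. In the COMB pools Foxj1 was at 388, 382 and 256. Every LPS and HPO pool was thus above every CTL pool, and every COMB pool was above all others. The log2 difference between COMB and CTL was 2.10 (SE 0.19, adjusted p = 4.18e-05). Foxj1 also rose in COMB against LPS, by 1.28 (adjusted p = 0.00196), and against HPO, by 1.30 (adjusted p = 0.00101). Against CTL it differed by 0.81 in LPS and 0.80 in HPO, which did not pass the threshold (adjusted p = 0.0506 and 0.168).

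Besides Foxj1, factors of the RFX family act on cilium genes through a promoter element called the X-box. Promoters from 250 bases before to 50 bases after the start of each gene were taken from RefSeq on the rat build GRCr8, and 62 of the 72 members had at least 1. The X-box was searched on both strands as GTNNCC, any 2 bases, then GGNAAC. It was found in 5 of the 62 members (8.06%), Dnah2, Ift140, Ift22, Cfap298 and Cfap20dc, and in 1.37% of all 27457 genes in the table. The shorter GTTGCC, which overlaps the first part of some X-boxes, was found in 26 members (41.9%) and 13.1% of all genes. The forkhead motif TGTTTAC was found in 4 members (6.45%), Cfap20, Dnali1, Mlf1 and Tekt3, and in 4.13% of all genes. By their change in COMB, GTTGCC was in 16 of 36 members that rose and in 10 of 24 that were not called, and the X-box was in 2 and 3 of them.

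The promoters of Ift140, Ift22 and Cfap298 are shown as examples of members with an X-box, each 5' to 3' on the strand of its gene with the X-box in capitals. Ift140, a subunit of the retrograde transport complex, lies at chr10:14537216-14537515 on the plus strand, with the element from base 4 after the start. Ift22 encodes a small GTPase of the anterograde complex, and its promoter is at chr12:25405461-25405760 on the minus strand, with the element 7 bases before the start. Cfap298, a factor of dynein arm assembly, lies at chr11:43677333-43677632 on the minus strand, with an element 231 bases before the start that reads as an X-box on both strands.
Ift140: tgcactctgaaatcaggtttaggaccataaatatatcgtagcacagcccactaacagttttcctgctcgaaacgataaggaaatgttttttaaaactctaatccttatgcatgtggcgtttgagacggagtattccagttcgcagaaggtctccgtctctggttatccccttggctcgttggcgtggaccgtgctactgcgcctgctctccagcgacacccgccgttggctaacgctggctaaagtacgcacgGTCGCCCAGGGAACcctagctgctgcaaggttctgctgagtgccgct
Ift22: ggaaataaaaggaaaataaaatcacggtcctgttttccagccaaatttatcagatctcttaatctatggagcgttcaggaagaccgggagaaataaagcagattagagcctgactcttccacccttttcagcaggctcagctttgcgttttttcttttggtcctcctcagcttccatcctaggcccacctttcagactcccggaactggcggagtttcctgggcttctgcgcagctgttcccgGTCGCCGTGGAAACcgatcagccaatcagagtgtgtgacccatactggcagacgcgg
Cfap298: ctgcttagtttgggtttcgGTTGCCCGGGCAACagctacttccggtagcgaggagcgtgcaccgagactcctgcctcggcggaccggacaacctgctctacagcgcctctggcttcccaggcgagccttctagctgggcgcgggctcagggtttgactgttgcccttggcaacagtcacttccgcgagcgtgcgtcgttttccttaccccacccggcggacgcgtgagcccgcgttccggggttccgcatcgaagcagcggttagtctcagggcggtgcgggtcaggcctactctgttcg
Of these members, Ift22 rose by 0.35 on the log2 scale (adjusted p = 0.0324), whereas Ift140 differed by 0.42 (adjusted p = 0.138) and Cfap298 by 0.02 (adjusted p = 0.911).

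Dynein genes rose in COMB in both of their classes. Among the heavy chains, which are the motors themselves, 3 of 4 rose. Dnah1, of the inner arms, had intensities of 9.75, 15.9 and 20.4 in CTL, 49.0, 19.9 and 28.4 in LPS and 37.5, 21.6 and 26.4 in HPO, against 186, 129.7 and 47.5 in COMB. A CTL pool overlapped the lowest LPS pool, and the lowest COMB pool lay just below the highest LPS pool. The log2 difference of COMB from CTL was 2.75 (SE 0.46, adjusted p = 0.00149). The lowest CTL pool of Dnah1, at 9.75, was under the lowest 20th percentile of the arrays, 10.13, so this size is less certain. Dnah7, also of the inner arms, was near the filter in the other groups. It was at 8.32, 10.3 and 10.7 in the CTL pools, at 9.57 to 19.95 in the LPS pools and at 10.8 to 11.5 in the HPO pools, and reached 83.7, 51.9 and 21.9 in the COMB pools. No CTL pool of Dnah7 was above the 20th percentile of its array, so the size of the difference is uncertain. With CTL set at that percentile, Dnah7 was 3.97-fold higher in COMB by the mean of the log2 values (adjusted p = 0.00222 for the values as measured). The measured log2 difference was 2.13 with a pseudocount of 1 and 1.30 with 16. Dnah2, another heavy chain of the inner arms, was at 221, 73.8 and 31.2 in the COMB pools and at 14.9, 17.7 and 32.5 in the CTL pools, a difference of 1.92 (adjusted p = 0.0404). It is thus the member that rose by the fit while its lowest COMB pool stayed under the highest CTL pool, and the call was lost in 7 of the 12 fits that each left out 1 array. Dnah17, a heavy chain known from sperm, differed by -0.12 (adjusted p = 0.57). Of the intermediate and light chains, 3 of 4 rose. Dnali1, a light intermediate chain of the inner arms, was at 89.5, 89.5 and 76.5 in CTL, 107, 85.7 and 114 in LPS and 107, 96.5 and 105 in HPO, against 307, 272 and 165 in COMB. Its COMB pools were above all other pools, with a log2 difference from CTL of 1.49 (SE 0.20, adjusted p = 0.000371). A dimmer probe set of Dnali1, with a mean of 13.7, differed by 0.20 and was not called (adjusted p = 0.448). Dnai1, of the outer arms, rose by 1.45 (adjusted p = 0.000984) and Dnai7 by 1.20 (adjusted p = 0.0126). Dnal1, a light chain of the outer arms, differed by 0.65 (adjusted p = 0.0586).

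Of the 5 radial spoke genes, which relay signals between the central pair and the dynein arms, 3 rose. Rsph1, of the spoke head, was at 36.0, 40.8 and 34.8 in CTL, 83.8, 52.7 and 67.1 in LPS and 49.9, 40.1 and 42.3 in HPO, against 154, 137 and 104 in COMB. Here LPS lay between CTL and COMB with no overlap, while HPO overlapped CTL. The log2 difference of COMB from CTL was 1.78 (SE 0.18, adjusted p = 6.53e-05). Rsph9, another head protein, was at 18.2 to 20.1 in CTL and at 80.8, 72.7 and 39.2 in COMB, a rise of 1.62 (adjusted p = 0.000487). Rsph3, of the spoke stalk, was at 24.1, 23.7 and 12.3 in COMB and 11.7, 11.8 and 11.2 in CTL, so that 1 COMB pool stood close to CTL. Its difference of 0.68 (adjusted p = 0.0461) lost the call in 9 of the 12 fits without 1 array. Rsph6a differed by -0.20 (adjusted p = 0.289). Rsph10b differed by 0.01 (adjusted p = 0.956) by the probe set with the higher mean, which stayed between 66.7 and 71.8 in the CTL pools and between 68.8 and 71.5 in the COMB pools. The other Rsph10b probe set was at 20.7, 26.6 and 27.8 in CTL and 166, 77.7 and 40.2 in COMB, a difference of 1.66 (adjusted p = 0.0183). The probe sets of this gene disagree, and its response is therefore uncertain.

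In the nexin-dynein regulatory complex and the molecular rulers that space the axonemal repeat, 4 of 5 members rose. Drc12 had intensities of 60.8, 75.0 and 64.4 in CTL, 156, 107 and 148 in LPS and 107, 92.8 and 99.9 in HPO, against 707, 672 and 419.8 in COMB. Every COMB pool was above all others, and both LPS and HPO were above CTL with no overlap. Between COMB and CTL the log2 difference was 3.12 (SE 0.19, adjusted p = 3.17e-06). Drc3 was at 18.4 to 21.3 in CTL and at 166, 101 and 55.1 in COMB, a rise of 2.23 (adjusted p = 0.00051). Its LPS and HPO pools, at 19.6 to 31.9 and at 23.2 to 33.2, stayed below every COMB pool. Ccdc113, which was at 20.2 to 29.7 in CTL and at 207, 112 and 69.7 in COMB, rose by 2.13 (adjusted p = 0.00164). Drc1, which anchors the complex, rose by 0.91 (adjusted p = 0.0123). Ccdc40, a ruler protein, differed by 0.37 (adjusted p = 0.098).

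The CFAP genes, named for proteins associated with cilia and flagella, form the largest group, and 11 of 19 rose with none called lower. Cfap144 was at 45.5, 66.7 and 31.4 in CTL, 143, 90.6 and 120.5 in LPS and 106, 88.7 and 101 in HPO, against 453, 505 and 307 in COMB. All LPS and HPO pools were above CTL, and every COMB pool was above all other pools. The log2 difference of COMB from CTL was 3.15 (SE 0.26, adjusted p = 2.64e-05), the largest of all members, and a second probe set of the gene gave 2.33 (adjusted p = 0.00017). Cfap69, of the central apparatus, rose by 2.16 (adjusted p = 3.77e-05), and its second probe set by 2.12 (adjusted p = 0.0013). Its first probe set was at 24.2 to 27.0 in CTL, 33.2 to 52.2 in LPS, 27.9 to 37.7 in HPO and 93.3 to 136 in COMB, so that LPS and HPO overlapped each other but neither CTL nor COMB. Cfap77, an inner protein of the doublets, was at 24.1 to 27.1 in CTL, 35.8 to 47.5 in LPS, 31.4 to 40.7 in HPO and 82.1 to 141 in COMB, a rise of 2.12 (adjusted p = 3.14e-05). Cfap161 (2.07), Cfap45 (1.75), Cfap107 (1.09), Cfap276 (0.99) and Cfap126 (0.98), which also line the doublets, rose as well, as did Cfap299 (2.12), Cfap300 (1.85) and Cfap20 (0.54). Cfap100 differed by 1.20 without a call (adjusted p = 0.176), with COMB pools at 127, 40.7 and 19.3. Cfap298 stayed at 399 to 462 in CTL and 424 to 456 in COMB. Among the other members not called were Cfap36 (0.21), Cfap410 (0.19), Cfap97 (0.07) and Cfap20dc (-0.33).

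The tektins form stable filaments inside the doublets, and 3 of the 5 tested rose. Tekt1 was at 28.1, 43.6 and 36.8 in CTL, 91.3, 62.6 and 62.7 in LPS and 55.2, 38.3 and 72.1 in HPO, against 451, 333 and 198 in COMB. The LPS pools were above CTL and the HPO pools overlapped it, while all COMB pools were above the others. Besides its difference of 3.09 from CTL, Tekt1 rose in COMB against LPS by 2.11 (SE 0.30, adjusted p = 0.0016) and against HPO by 2.51 (adjusted p = 0.000316). Tekt2 was at 15.2 to 24.0 in CTL, 42.2 to 62.8 in LPS and 26.8 to 34.4 in HPO, and at 306, 123 and 109 in COMB. Its groups did not overlap, and COMB differed from CTL by 2.91 (adjusted p = 0.000132), from LPS by 1.65 (adjusted p = 0.00764) and from HPO by 2.32 (adjusted p = 0.000761). Tekt4 rose by 2.34 against CTL (adjusted p = 0.000139), with COMB pools at 88.6, 66.0 and 43.2 and CTL pools at 9.44 to 13.4. The lowest CTL pool of Tekt4 was under the lowest 20th percentile of the arrays, 10.13, so this size is less certain. Tekt3 differed by 0.31 (adjusted p = 0.153) and Tektl1, a tektin-like gene, by -0.03 (adjusted p = 0.912). Tekt5 and Tekt5l1 were below the filter.

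**Figure D2:**
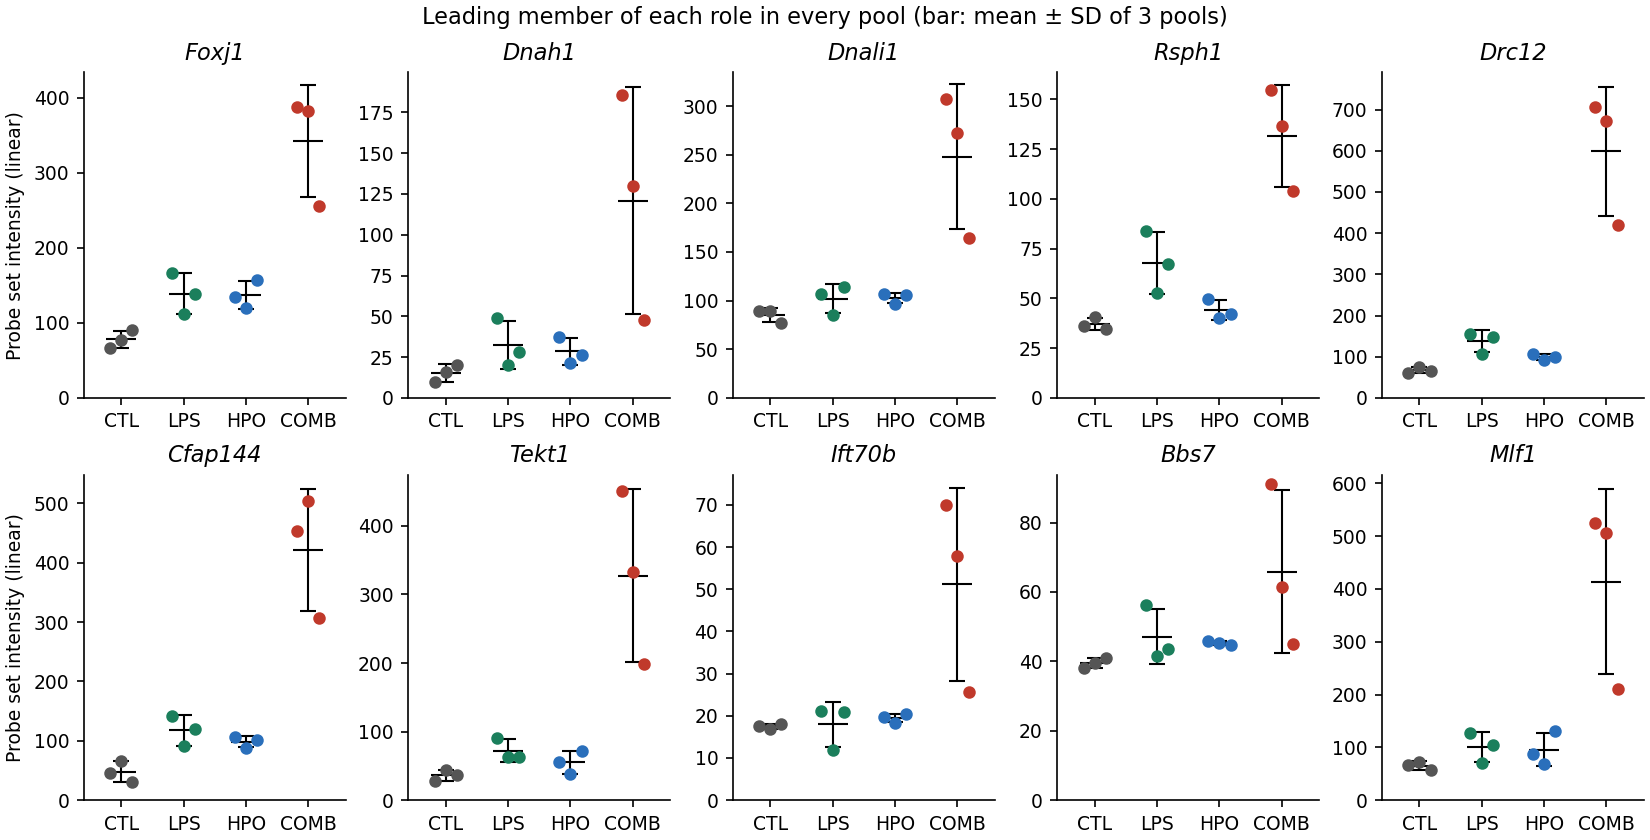
Intensity on a linear axis in every pool for Foxj1 and for the member of each role with the largest called difference between COMB and CTL. Each point is 1 pool and the bars are the mean and SD of the 3 pools of a group. The COMB pools of Foxj1, Drc12, Cfap144 and Tekt1 are above all other pools, whereas those of Bbs7 overlap LPS and HPO.

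Intraflagellar transport genes moved less. Of 17 members, 6 rose, 1 fell and the median difference was 0.42. Ift70b, of the anterograde complex, was at 17.6, 16.9 and 17.9 in CTL, 21.1, 11.9 and 21.0 in LPS and 19.7, 18.3 and 20.3 in HPO, against 70.1, 57.8 and 25.7 in COMB. The LPS pools overlapped CTL and the HPO pools were just above it, while every COMB pool was above all others, that of rats 12, 13 and 14 by little. The log2 difference of COMB from CTL was 1.38 (SE 0.30, adjusted p = 0.00754). The related Ift70a1 differed by 0.44 (adjusted p = 0.389), and whether their probes bind each other's transcripts was not tested. Ift43 (1.01, adjusted p = 0.000596) and Ift122 (0.79, adjusted p = 0.00591), of the retrograde complex, rose, as did Ift172 (0.74), Ift27 (0.61) and Ift22 (0.35). Dimmer probe sets of Ift122 (0.09, adjusted p = 0.555) and Ift22 (0.14, adjusted p = 0.518) were not called. Ift43 was at 97.4, 77.7 and 79.6 in CTL and at 192, 174 and 149.6 in COMB, with every COMB pool above the LPS pools (93.0 to 110.5) and the HPO pools (76.9 to 106). Ift20 differed by 0.28 (adjusted p = 0.0688), and Ift88, a central subunit of the anterograde complex, by 0.12 (adjusted p = 0.645). Ift52 (0.02), Ift80 (-0.003), Ift25 (0.25), Ift74 (0.29), Ift140 (0.42) and Ift46 (0.43) were not called against CTL either, although Ift46 (0.72), Ift74 (0.68) and Ift25 (0.43) rose against LPS, calls that were lost in 5, 5 and 2 of the 12 fits without 1 array. Ift81 differed by 0.66 (adjusted p = 0.0911), and a dimmer probe set of it rose by 0.86 (adjusted p = 0.0072). The member that fell was Ift57, of the anterograde complex. Its intensities were 459, 400.3 and 429 in CTL, 365, 359.6 and 305 in LPS and 441, 402 and 485 in HPO, against 343, 245 and 317.5 in COMB. The COMB and LPS pools were below every CTL pool and the HPO pools overlapped CTL. Ift57 fell by 0.52 against CTL on the log2 scale (adjusted p = 0.0172) and by 0.56 against HPO (adjusted p = 0.0146).

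Of the 7 Bbs genes, most of which encode the BBSome, a coat complex that sorts membrane cargo of cilia, 2 rose and 1 fell. Bbs7 was at 38.2, 39.5 and 41.0 in CTL, 56.1, 41.5 and 43.5 in LPS and 45.9, 45.3 and 44.8 in HPO, against 91.2, 61.5 and 45.0 in COMB. The COMB pools overlapped LPS and HPO but not CTL, with a log2 difference from CTL of 0.66 (SE 0.20, adjusted p = 0.0363). Bbs1 rose by 0.64 (adjusted p = 0.042), and both calls were lost in 6 of the 12 fits without 1 array. A dimmer probe set of Bbs7 differed by 0.11 and was not called (adjusted p = 0.482). Bbs4 differed by 0.46 (adjusted p = 0.167) and Bbs5 by 0.67 (adjusted p = 0.0769), Bbs2 by -0.13 and Bbs12, a chaperonin-like gene, by -0.36 (adjusted p = 0.062). Bbs9 was at 88.4, 74.5 and 82.1 in CTL, 60.9, 63.3 and 58.3 in LPS and 68.7, 69.9 and 85.1 in HPO, against 64.1, 68.5 and 50.8 in COMB. It lay below CTL in every LPS and COMB pool, with a log2 difference of -0.42 in each, and the call was made for COMB (adjusted p = 0.0366) and not for LPS (adjusted p = 0.126). The calls of Ift57 and Bbs9 both failed when either the first CTL pool (rats 1, 3 and 4) or the last (rats 8, 9 and 10) was left out, which left 0 members lower. The calls of the members that rose were steadier, and 30 of 39 were made in each of the 12 fits without 1 array.

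The last 3 members all rose. Mlf1, first known from a leukemia fusion, was at 66.9, 72.6 and 56.8 in CTL, 127, 69.9 and 104 in LPS and 87.7, 69.1 and 130.6 in HPO, against 524, 507 and 211 in COMB. LPS and HPO each overlapped CTL, and COMB was above all. Mlf1 differed between COMB and CTL by 2.54 (SE 0.34, adjusted p = 0.000411). Lrrc23, a radial spoke protein, was at 32.2, 51.0 and 48.3 in CTL and at 312, 205 and 111 in COMB, a rise of 2.14 (adjusted p = 0.00122). A second probe set of Lrrc23 gave 1.18 (adjusted p = 0.00021) and was also higher in LPS than in CTL, by 0.83 (adjusted p = 0.017), where the first was not called (0.59, adjusted p = 0.485). Ropn1l was at 5.98 to 9.41 in CTL and at 42.6, 32.0 and 11.9 in COMB, and no CTL pool was above the 20th percentile. With CTL set at that percentile, Ropn1l was 2.25-fold higher in COMB by the mean of the log2 values (adjusted p = 0.0127 for the values as measured). Its lowest COMB pool, at 11.9, was close to the percentile of the CTL arrays, 10.63 to 10.94. The measured log2 difference of 1.69 became 0.88 with a pseudocount of 16.

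The 3 COMB pools were not alike, and the order was shared by the members. Of the 39 members that rose, the pool of rats 2 and 3 was the highest COMB pool in 37 and the pool of rats 10 and 11 in the other 2, while the pool of rats 12, 13 and 14 was the lowest in all 39. The median log2 difference of these members from the CTL mean was 2.13, 1.85 and 0.99 in the same order of pools. The intensity in the pool of rats 2 and 3 was a median of 1.90 times that in the pool of rats 12, 13 and 14, from 1.17 times for Cfap126 to 7.06 times for Dnah2. Even so, all COMB pools were above every CTL pool in 38 of the 39, the exception being Dnah2, and above all 9 other pools in 31. Within LPS, the pool of rats 2, 3 and 6 was highest in 34 of the 39, and within HPO the pool of rats 2, 4 and 11 was lowest in 29. The labels list 2 rats for the COMB pools with the higher values and 3 for the lowest, and the part of the number of rats was not tested.

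**Figure D3:**
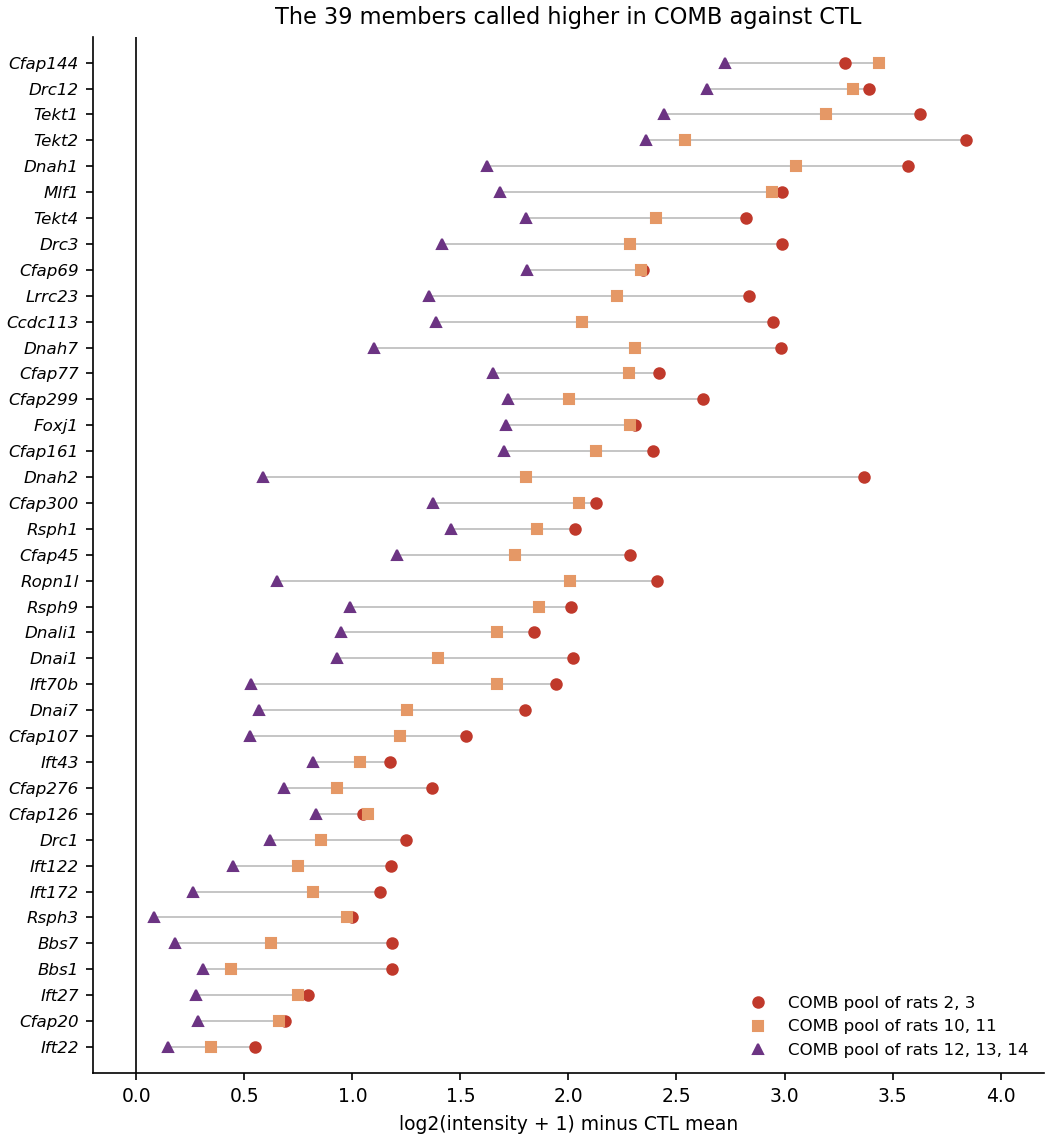
Difference of each COMB pool from the CTL mean, on the log2(intensity + 1) scale, for the 39 members that rose, sorted by their mean. Symbols mark the 3 pools, and the pool of rats 12, 13 and 14 lies farthest to the left in all 39 rows.

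LPS alone was followed by higher levels of a few members. Against CTL, 3 of 70 rose and none fell, beside 1.25% and 1.52% of all genes, and 18 members had an unadjusted p under 0.05 in either direction. The median difference was 0.21, against -0.02 over all genes, with 47 members above 0. Every LPS pool was above every CTL pool in 19 members, where 12% of all genes showed this. In 11 other members every LPS pool was below every CTL pool, a direction not counted over all genes. The 3 members called were Cfap144 (1.32, SE 0.26, adjusted p = 0.026), Drc12 (1.02, SE 0.19, adjusted p = 0.0246) and Rsph1 (0.83, SE 0.18, adjusted p = 0.038). All 3 calls were lost when the CTL pool of rats 1, 3 and 4 was left out. The same held for the CTL and LPS pools of rats 8, 9 and 10 and the LPS pool of rats 2, 3 and 6. Each of these fits gave 0 members higher, as did a fit with the CTL and LPS pools matched by their order as a block. Without the COMB pool of rats 2 and 3, 7 members were called, and without that of rats 12, 13 and 14, 9 members. Among the members with an unadjusted p under 0.05 but no call were Cfap69 (0.74, adjusted p = 0.0733), Tekt2 (1.26, adjusted p = 0.0743), Cfap161 (0.66, adjusted p = 0.0746) and Cfap77 (0.70, adjusted p = 0.0777). Structural members had a median of 0.32, whereas intraflagellar transport and the BBSome had a median of -0.06, with 7 of 24 above 0.

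Hypoxia alone gave no call. Against CTL, 0 of 70 members passed in either direction by limma, beside 0.0311% of all genes higher and 0% lower, and 5 members had an unadjusted p under 0.05. The methods' t-test, unadjusted, counted 11 members higher, and array weights in limma called 11 higher and 1 lower. The share of all genes was not counted for unadjusted p values or for array weights. Among the HPO arrays the weights ranged from 0.226 for the pool of rats 3, 5 and 12 to 6.38 for that of rats 7, 8 and 9. The median difference was 0.18, against -0.004 over all genes, with 57 members above 0. All HPO pools were above all CTL pools in 18 members, where 8.22% of all genes showed this. They were below all CTL pools in 1 member, a direction not counted over all genes. Cfap144 was the only member past 2-fold, with 1.09 (SE 0.26, adjusted p = 0.168). Next in size were Dnah1 (0.87, adjusted p = 0.607), Cfap100 (0.82, adjusted p = 0.75) and Foxj1 (0.80). Bbs4 differed by 0.60 (adjusted p = 0.365), with HPO pools at 90.0 to 102 and CTL pools at 48.4 to 77.5. Structural members had a median of 0.25 and those of intraflagellar transport and the BBSome of 0.08. LPS, HPO and COMB were compared with the same CTL pools, so a CTL pool that stands apart moves all 3 differences together.

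COMB was also compared with each single exposure. Against LPS, 35 members rose and none fell, beside 8.71% and 5.04% of all genes, and the median difference was 0.67 (0.005 over all genes). Against HPO, 35 rose and 1 fell, beside 9.23% and 9.36%, with a median of 0.58 (-0.02 over all genes). Drc12 differed by 2.10 (SE 0.19, adjusted p = 0.000238) from LPS and by 2.54 (SE 0.19, adjusted p = 2.36e-05) from HPO. Cfap144 differed by 1.82 (adjusted p = 0.00159) and 2.06 (adjusted p = 0.000427), and Dnali1 by 1.23 (adjusted p = 0.00268) and 1.22 (adjusted p = 0.00174). Rsph1 differed by 0.95 from LPS (adjusted p = 0.00585) and by 1.54 from HPO (adjusted p = 0.00026). Cfap69 rose by 1.42 and 1.91 and Cfap161 by 1.42 and 1.86. Of the structural members, 27 of 46 rose against LPS and 28 against HPO. In the BBSome, Bbs5 rose against LPS (0.86, adjusted p = 0.0399), but its lowest COMB pool, at 51.2, was under the highest LPS pool, at 52.5, and the call was lost in 8 of the 12 fits without 1 array and with array weights. No Bbs gene was called against HPO.

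The interaction asked whether COMB exceeded LPS by more than HPO exceeded CTL. By limma 0 of 70 members were called, beside 0.156% of all genes higher and 0.0233% lower, although 29 members had an unadjusted p under 0.05 and 60 lay above 0. The median was 0.50, against 0.01 over all genes. The interaction was 1.52 for Drc12 (adjusted p = 0.0603), 1.20 for Cfap161 (adjusted p = 0.0728), 1.38 for Cfap299 (adjusted p = 0.0956), 1.54 for Tekt1 (adjusted p = 0.163) and 0.48 for Foxj1 (adjusted p = 0.506). The count rested on single pools. Without the COMB pool of rats 12, 13 and 14 there were 15 members called, without that of rats 2 and 3 there were 3, and with array weights there were 16.

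Cilium genes outside the rule followed the members. Of 24 tested from a list of 28 on the array, 18 rose in COMB against CTL and 1 fell, with a median of 0.82. Dynlrb2, a dynein light chain, rose by 2.67 and was the 1 gene of this list called in LPS (adjusted p = 0.0473). Ccdc65, of the nexin-dynein regulatory complex, rose by 2.34 (adjusted p = 0.000458), Ak7 by 2.06 and Zmynd10, a factor of dynein arm assembly, by 1.59. Lrrc71 fell by 0.36 (adjusted p = 0.0212). Regulators of multiciliated cell fate and centriole amplification moved less, with 3 of 25 higher, none lower and a median of 0.08. Deup1, a scaffold of centriole amplification, rose by 1.86 (adjusted p = 0.0023), with means of 14.9 in CTL, 17.99 in LPS and 29.5 in HPO, against 62.5 in COMB. Ccp110 (0.94) and E2f5 (0.82) rose too. The upstream factors Gmnc (0.20, adjusted p = 0.82) and Myb (0.95, adjusted p = 0.299) and the X-box factors Rfx2 (0.03, adjusted p = 0.94) and Rfx3 (0.28, adjusted p = 0.179) were not called. Gmnc had means of 8.29 in CTL, 7.52 in LPS and 10.69 in COMB, against 25.75 in HPO. The 20th percentile of the arrays was 10.13 to 11.25, so the probe set of Gmnc could miss a change between CTL and COMB.

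Markers of other airway cells were also higher in COMB. Of 14 markers of epithelial cells in general, 13 rose in COMB against CTL and 1, Krt7, fell (-1.36, adjusted p = 0.0051), with a median of 1.99. Their summed intensity was 2407 to 2459 in the CTL pools, 2226 to 3051 in LPS, 2640 to 4188 in HPO and 4070 to 6988 in COMB. Of 12 airway secretory markers, 10 rose in COMB with a median of 2.35, and their sum was 7925 to 11470 in CTL, 17900 to 20470 in LPS, 19670 to 21050 in HPO and 27280 to 38570 in COMB. No airway basal marker of 6 was called against CTL, with medians of 0.75 in COMB, -0.26 in LPS and 0.50 in HPO. Against LPS, 2 of them rose in COMB, Krt15 (2.17, adjusted p = 0.00425) and Krt5 (1.26, adjusted p = 0.0343). All 14 epithelial markers passed the 20th percentile filter, and their CTL means ranged from 20.0 for Spint1 to 865 for Krt7. In HPO the epithelial median was 0.84, with an unadjusted p under 0.05 in 11 of 14, and the secretory median was 1.52, with 10 of 12, beside a median of 0.18 and 5 of 70 for the members, and no marker of either list was called. In LPS the secretory median was 0.93 with 4 called and the epithelial median 0.27 with 0 called. Within COMB, the epithelial and secretory sums were highest in the pool of rats 2 and 3 and lowest in that of rats 12, 13 and 14, as was the summed intensity of the members, at 11560, 9788 and 7198. The same sum was 4888 to 5132 in CTL. Of 10 alveolar type 2 markers 5 rose and 1 fell with a median of 1.29, and their sums in the COMB pools, at 3835, 3256 and 2774, had the same order. Of 7 alveolar type 1 markers 4 rose, with a median of 0.50. Of 11 T and B cell markers 2 rose, with a median of 1.30, and within COMB their sum was lowest in the pool of rats 2 and 3, at 1061, against 5446 and 3247. Of 10 neutrophil markers 4 rose and 2 fell, and of 15 alveolar macrophage markers 1 rose and 6 fell, with their sum at 34490 to 37520 in COMB and 40020 to 43970 in CTL. When the arrays were scaled to the epithelial markers, 4 members were higher and 49 lower in COMB than in CTL. Their median was -1.54, while the median of all genes moved to -2.25. The share of all genes called with this scaling was not counted. The part of epithelial cells in the lavage in the rise of the cilium genes was not tested.

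**Figure D4:**
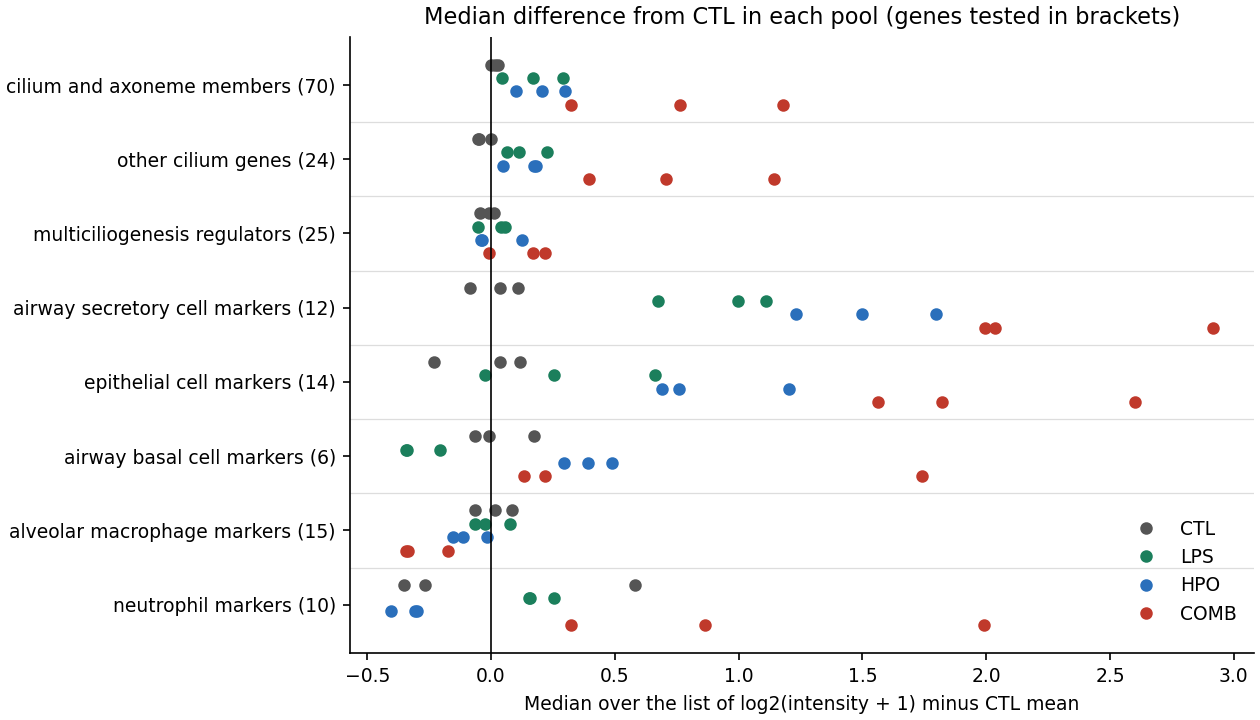
Median log2 difference from the CTL mean in each of the 12 pools for the cilium members and for marker lists, on the log2(intensity + 1) scale. Each point is 1 pool, and the cilium, epithelial and secretory medians are highest in the COMB pool of rats 2 and 3.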

How the data were processed

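RNA pools of BALF cells were hybridized to 12 Affymetrix Rat Genome arrays, 3 per group. From the scans the authors made the deposited linear intensity of each probe set on each array. Their method of normalization was not given in the sources used here. Array medians lay between 32.72 and 35.61, and precision is limited by the number of arrays. The members and lists were chosen with earlier results of these data known.

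Groups came from the sample labels. Of 31099 probe sets, 57 were controls and were left out, 20832 name 1 gene, 436 several and 9831 none, by the annotation of the platform. All 72 members were found by their Entrez IDs in the RefSeq table, with 0 symbols changed. Values were taken as log2(intensity + 1). limma 3.58.1 in R 4.3.3 fitted 4 group means to the 25692 probe sets tested in all 12 arrays (residual degrees of freedom 8, prior 3.94). The contrasts set each exposed group against CTL and COMB against each single exposure, with the interaction as the last. The p values of limma were adjusted by Benjamini-Hochberg over all probe sets tested, with a threshold of 0.05. Lists were described by counts and medians, with no test. The fit was tested on simulated data.

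Named were, per role, up to 3 called members with the largest difference between COMB and CTL and the member not called with the highest mean, every member called in LPS, HPO or the interaction or called lower, Foxj1, the members with the highest and lowest mean, and up to 2 genes of each other list. Other names were chosen after their values were seen. Alternatives were the pseudocount, normalization, filter, variance model, samples in the fit, the tests and fold criterion of the methods, the probe sets of a gene and updated symbols. Further alternatives were a block by the order of the CTL and LPS pools, for LPS, and each array left out in turn. Scaling to epithelial markers and the fold differences with CTL set at the 20th percentile were chosen with the data in view. The scanner output and the experiments of the study other than these arrays were not analysed here. Promoter sequences other than those of Ift140, Ift22 and Cfap298 are not reported here.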

Additional observations from a re-analysis of the deposited data

How the results depend on the processing

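The direction of the median over members was kept in all 6 comparisons by every planned setting, and it was turned only by the scaling to epithelial markers that was added after the data were seen. With that scaling the medians were -1.54 (COMB against CTL), -0.105 (LPS), -0.867 (HPO), -1.23 (COMB against LPS), -0.599 (COMB against HPO) and -0.365 (interaction), while all genes moved to -2.25, -0.33, -1.05, -1.90, -1.19 and -0.85. In the same order of comparisons, 4, 2, 0, 0, 12 and 0 members were then higher and 49, 2, 56, 53, 35 and 9 lower. With each array left out in turn, members higher in COMB against CTL numbered 31 to 46 and lower 0 to 3, with a median of 0.500 to 0.955. Against LPS, COMB had 24 to 48 higher and 0 to 1 lower, and against HPO 25 to 41 higher. LPS had 0 to 9 higher, HPO had 0, and the interaction 0 to 15, with a median of 0.354 to 0.749. Array weights gave 15 higher and 5 lower for LPS, 11 and 1 for HPO, 16 higher in the interaction and 1 lower in COMB against LPS. The methods' t-test after adjustment left 6 higher in COMB against CTL and 0 higher or lower in the other comparisons it was run for, and unadjusted it gave 4 lower in COMB against CTL, 14 higher and 8 lower in LPS, 11 higher in HPO, and 1 and 2 lower in COMB against LPS and HPO. A fit of only the groups compared gave 22 higher in COMB against LPS, 10 higher and 3 lower in LPS, and 0 lower in COMB against CTL and against HPO. The 2-fold criterion with no test gave 1 member in HPO, 13 in the interaction, and 0 lower in COMB against CTL or HPO. The interaction had 1 member with a pseudocount of 16 and 2 with a trended, robust fit. Centring of the arrays and averaging over the probe sets of a gene each gave 1 lower in COMB against LPS. Pools of LPS and CTL matched by their order, which share some rat numbers, did not deviate together (r = 0.039, -0.0076 and -0.0016). Each group had only 3 pools, so these correlations cannot exclude a pairing in that order. With that order as a replicate block 0 members were higher and 0 lower in LPS, with a median of 0.208. The share of all genes called was counted only for the main fit at an adjusted p under 0.05. The cause of these shifts was not tested. Low intensity near background limits Dnah7, Ropn1l, Bbs1, Rsph3, Tekt3, Dnah1, Tekt4 and Cfap276. Tekt3 had no call in COMB against CTL. The calls of the others there were lost when only probe sets above the 20th percentile in all 12 arrays were tested. No named member reversed under any planned setting.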
